A study of Mus musculus with 7 samples.

Results

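The SR and hnRNP genes were taken from the deposited table by symbol: every gene named Srsf with a number, 1 gene excepted, and every gene whose symbol starts with Hnrnp and a letter, pseudogenes excepted. This gave 30 genes of the 46959 features listed, 10 SR genes and 20 hnRNP genes, and all 30 passed the filter on low reads. They were compared between B cells labelled cKO MED1 (4 libraries) and wild-type B cells (WT, 3 libraries).

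SR proteins bind exonic sequences through RNA recognition motifs (RRMs) and use a tail rich in arginine and serine to bring the spliceosome to nearby splice sites. The hnRNPs are abundant nuclear proteins that coat new transcripts, and many of them act against SR proteins by blocking splice sites or looping exons out. In B cells this balance bears on processed transcripts such as those of immunoglobulin heavy chains and of CD45, and many of these genes limit their own protein by splicing in exons that send the transcript to nonsense-mediated decay.

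Mouse splenic B cells, labelled cKO MED1 for a conditional knockout of Med1 or wild type, were purified and cultured for 4 days with lipopolysaccharide (LPS, 1 µg/mL), a bacterial B cell activator, and interleukin 4 (IL-4, 20 ng/mL), a cytokine of class switching. Med1 is a subunit of Mediator, the complex that connects enhancers with RNA polymerase II. Total RNA depleted of ribosomal RNA was sequenced. The Cre driver, strain and age of the mice are not given in the sources used here. The labels do not say that the replicates are separate mice, and all p-values then refer to the spread among these libraries.

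Read totals were 31937372 to 49603193 in cKO MED1 and 54736580 to 61149274 in WT, so every WT library was deeper. Normalised reads, used throughout, are reads scaled to a common library of 48019763. Med1 had 2585, 2172, 2249.5 and 2436 normalised reads in cKO MED1, against 4755.5, 4173 and 4210.1 in WT, so the targeted gene was lower in all 4 cKO MED1 libraries (log2 fold change -0.89, SE 0.09, adjusted p = 0.000174 by limma). By Xist and the Y-linked gene Ddx3y, cKO MED1 replicates 1, 2 and 4 were female, and cKO MED1 replicate 3 and all WT libraries were male. Reads of 1429 olfactory and vomeronasal receptor genes, which B cells are not known to use and which are called silent genes here, stood at 22.9, 30.6, 51.1 and 82.0 RPM (a share of all reads, scaled to a fixed total) in cKO MED1 replicates 1 to 4, against 11.7, 24.3 and 20.4 in WT replicates 1 to 3. The mitochondrial ribosomal RNA gene mt-Rnr2 held 21.0%, 26.7%, 32.4% and 35.5% of reads in cKO MED1 and 17.7%, 22.5% and 19.5% in WT. The summed reads of 8 B cell markers were 276017 to 321942 in cKO MED1 and 337501 to 349677 in WT, with 5 of the 8 lower by limma. Reads of markers of other cells were far fewer, with sums in cKO MED1 of 67.8 to 200 for 8 T cell genes, against 53.0 to 80.6 in WT, 1872 to 2492 for 7 macrophage and monocyte genes, against 2152 to 2706 in WT, and 3487 to 4608 for 5 dendritic cell genes, against 2371 to 3319 in WT. For 6 NK cell genes they were 90.8 to 256 in cKO MED1 and 167 to 262 in WT, for 6 neutrophil genes 19.0 to 78.7 in cKO MED1 and 2.75 to 11.4 in WT, and for 5 megakaryocyte genes 108.0 to 185 in cKO MED1 and 31.7 to 50.6 in WT. For 7 stromal and endothelial genes they were 1076 to 1374 in cKO MED1 and 1408.0 to 1658 in WT, and for 6 erythroid genes 134 to 484 in cKO MED1 and 135 to 247 in WT. In both lists 1 gene was lower and 1 higher by limma. In the dendritic cell list 2 of the 3 tested genes were higher and 0 lower. In the neutrophil and megakaryocyte lists the 1 tested gene was higher. No tested gene of the T cell, NK cell or macrophage and monocyte lists was called. Of all tested genes 14.6% were lower and 13.4% higher. The stromal and endothelial sum was mostly Pecam1, at 920 to 1070.5 in cKO MED1 and 1353 to 1560 in WT. Vwf went the other way, at 20.3 to 157 in cKO MED1 and 5.51 to 17.6 in WT. The rest of this list also reached higher values in cKO MED1 than in WT, with overlapping groups. These genes were Col1a1 (14.9 to 49.4 in cKO MED1 and 2.75 to 15.2 in WT), Col1a2, Col3a1, Pdgfrb and Cdh5 (35.1 to 69.5 and 26.2 to 38.4). Most of the macrophage and monocyte sum was Mpeg1, and most of the dendritic cell sum Flt3. No marker of these lists was at 0 in every library, and their part in the results was not tested. In such bulk RNA, fewer cells of a type and less RNA per cell cannot be told apart.

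Among the 30 genes, 15 fell in cKO MED1 and 0 rose at a limma adjusted p of 0.05, fitted and adjusted over 18062 genes. The fallen genes were 6 of 10 SR genes (Srsf1, Srsf3, Srsf6, Srsf7, Srsf9 and Srsf10) and 9 of 20 hnRNP genes (Hnrnpa0, Hnrnpab, Hnrnpd, Hnrnpdl, Hnrnpf, Hnrnph2, Hnrnpk, Hnrnpl and Hnrnpm). Of all tested genes, 14.6% were called lower and 13.4% higher. The third of tested genes with the highest means, called the high-expression genes here (6021 genes), holds 27 of the 30 and all 15 that fell, and in it 27.6% were lower and 5.40% higher. The falls were small: fold changes of the 15 ran from -0.64 to -0.28 on the log2 scale, and the median over all 30 was -0.28, against -0.15 in the high-expression genes and 0.04 over all tested genes.

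Fold changes were negative in 27 of the 30 genes. The exceptions were Srsf5, Hnrnph3 and Hnrnpll, none of which passed the test, and all of which were negative when reads were scaled by library totals. The groups did not overlap in 18 of the 30 (7 SR and 11 hnRNP genes), each time with every cKO MED1 library below every WT library. Groups without overlap made up 43.6% of the high-expression genes and 39.1% of all tested genes, and those with cKO MED1 below WT 36.4% and 19.8%. Leaving out any single library except cKO MED1 replicate 1 gave fewer genes called lower, both among these genes and over all tested genes. Without WT replicate 1 the fallen genes numbered 0 of 10 SR and 3 of 20 hnRNP, with 5.25% of all tested genes lower, while the medians were -0.27 for SR and -0.24 for hnRNP genes, against -0.29 and -0.23 with all libraries. Without cKO MED1 replicate 4 they numbered 2 and 5, with 8.90% of all tested genes lower and medians of -0.25 and -0.17. Without cKO MED1 replicate 3, the only male library of cKO MED1, the fallen genes numbered 5 SR and 5 hnRNP, with 12% of all tested genes lower. Without cKO MED1 replicate 2 they numbered 4 and 6 (12.8%), without WT replicate 2 4 and 7 (10.9%), and without WT replicate 3 5 and 7 (13.1%). Without cKO MED1 replicate 1 they numbered 7 and 12, with 17.5% of all tested genes lower. With library sex added as a covariate 0 of 30 were called in either direction, and 0.659% of all tested genes were lower. The medians in that fit were -0.23 for SR and -0.28 for hnRNP genes. With silent-gene reads as a covariate 0 of 30 were called as well, 0.659% of all tested genes were lower, and the medians were -0.22 and -0.11. In both of these fits 0 calls among 30 genes is near the share over all genes.

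**Figure D1:**
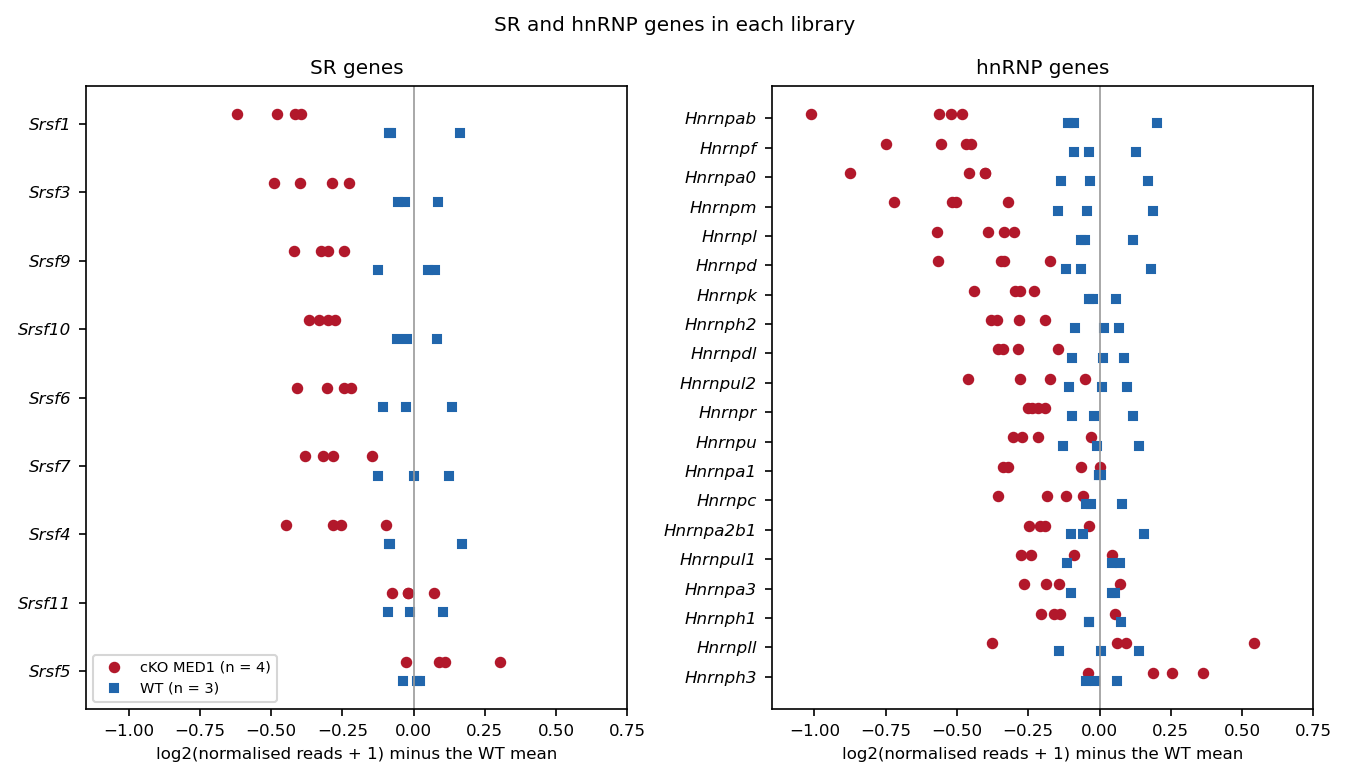
Level of 9 SR genes (left) and 20 hnRNP genes (right) in each library, as log2(normalised reads + 1) minus the WT mean of the gene. Circles are the 4 cKO MED1 libraries and squares the 3 WT libraries; Srsf12, with few reads, is left out. Genes with the largest falls stand at the top, where all circles lie left of all squares; Srsf5, Hnrnph3 and Hnrnpll, at the bottom, have circles on both sides of the WT mean.

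The promoters of genes with large falls are shown with those of Srsf5 and Hnrnph3, whose fold changes were above 0, so that their sequences can be compared. RefSeq (GRCm38.p6) gave start sites for 28 of the 30, and the stretches run from 150 bases before to 30 after the start, 5′ to 3′. They are those of the 4 largest falls among genes with 1 start site, at chr11:51606852-51607031 on the minus strand for Hnrnpab, chr13:58128527-58128706 on the minus strand for Hnrnpa0, chr17:33685429-33685608 on the minus strand for Hnrnpm and chr11:88047223-88047402 on the plus strand for Srsf1, and of Srsf5 at chr12:80945349-80945528 on the plus strand and Hnrnph3 at chr10:63023820-63023999 on the minus strand. Capitals mark, on either strand, the CCAAT box, the GC box (GGGCGG), the TATA box (spelled TATAAA), the E-box, here CACGTG, and the ETS motif, here CCGGAAG. In Srsf5 a GC box and an ETS motif overlap.
Hnrnpab: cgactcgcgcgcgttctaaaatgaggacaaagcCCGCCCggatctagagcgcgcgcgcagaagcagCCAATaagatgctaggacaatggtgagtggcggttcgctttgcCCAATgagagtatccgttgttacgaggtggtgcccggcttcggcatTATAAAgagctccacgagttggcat
Hnrnpa0: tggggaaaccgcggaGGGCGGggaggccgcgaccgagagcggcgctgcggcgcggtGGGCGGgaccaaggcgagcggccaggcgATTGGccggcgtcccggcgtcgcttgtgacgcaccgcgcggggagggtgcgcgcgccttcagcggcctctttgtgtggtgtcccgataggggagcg
Hnrnpm: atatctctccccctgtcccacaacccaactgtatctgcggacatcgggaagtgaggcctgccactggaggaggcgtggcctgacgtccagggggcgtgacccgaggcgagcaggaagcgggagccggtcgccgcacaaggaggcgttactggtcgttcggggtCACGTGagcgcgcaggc
Srsf1: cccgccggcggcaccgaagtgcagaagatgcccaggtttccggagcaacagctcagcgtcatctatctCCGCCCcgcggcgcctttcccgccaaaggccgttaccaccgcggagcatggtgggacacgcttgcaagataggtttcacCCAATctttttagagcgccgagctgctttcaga
Srsf5: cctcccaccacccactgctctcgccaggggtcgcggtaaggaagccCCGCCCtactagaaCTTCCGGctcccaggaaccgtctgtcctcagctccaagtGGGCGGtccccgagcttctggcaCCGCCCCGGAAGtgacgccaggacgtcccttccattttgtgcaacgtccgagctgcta
Hnrnph3: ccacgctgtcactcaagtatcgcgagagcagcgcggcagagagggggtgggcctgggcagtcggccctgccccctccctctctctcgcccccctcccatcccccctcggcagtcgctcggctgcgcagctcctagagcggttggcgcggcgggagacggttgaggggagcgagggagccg

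These promoters were rich in G and C: over the 40 windows of the 28 genes, from 250 bases before to 50 after a start, the median GC content was 67.8%, against 52.7% over all 32851 windows. GGGCGG was found in 82.5% of the member windows and 35.7% of all windows, CCGGAAG in 25.0% and 8.86%, the NRF1 motif in 17.5% and 4.60%, and CCAAT in 20 of the 40, against 37.4% of all. CACGTG was in 12.5% and 7.15%, TATAAA in 7.50% and 13.6%, and TGACGTCA in 0% and 1.79%. All motifs were searched on both strands. By gene, CACGTG was in 4 of the 15 genes that fell and 1 of the 13 others with a window. TATAAA was in 3 and 0, CCAAT in 9 and 7, and GGGCGG in 12 and 11. CCGGAAG and the NRF1 motif were each in 3 and 3. A match describes these letters only, and the differences between the genes that fell and the others were not tested. The 32851 windows were not matched for expression level, and 27 of the 30 genes lie in the third of tested genes with the highest means.

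The SR genes with 2 RRMs were led by Srsf1 (ENSMUSG00000018379.17, chromosome 11 from 88047373 to 88053755, plus strand; positions throughout are of GRCm38), whose protein, SF2/ASF, was among the first SR proteins described and also acts in translation and RNA stability. Normalised reads of Srsf1 were 13235, 12468, 13032 and 11317.5 in cKO MED1, against 19497, 16398 and 16474 in WT. All 4 cKO MED1 libraries were below the WT libraries, with WT replicate 1 the highest and cKO MED1 replicate 4 the lowest. The means were 12513 ± 860.5 in cKO MED1 and 17456 ± 1768 in WT (SD, n = 4 and 3), 71.7% of the WT mean, and on the log2 scale the change was -0.48 with SE 0.105 (adjusted p = 0.0101 by limma).

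Srsf9, the closest relative of Srsf1, had 1710.1, 1620.0, 1646 and 1515 normalised reads in cKO MED1, against 2098, 1860.5 and 2137 in WT. The groups did not overlap, and the fold change was -0.32 with SE 0.09 (adjusted p = 0.022 by limma). Srsf6, which encodes the SR protein SRp55, had 7207, 6795, 7085.5 and 6312 in cKO MED1, against 9207, 8221 and 7789 in WT, again without overlap, and fell by 0.29 with SE 0.09 (adjusted p = 0.0388 by limma) on the log2 scale. Its paralog Srsf4 had 1608, 1416, 1445 and 1263 in cKO MED1, against 1939, 1621 and 1626 in WT. Although these groups did not overlap either, the test was not passed at -0.27 (95% interval -0.50 to -0.04, adjusted p = 0.0712 by limma).

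Srsf5, the most abundant SR gene per kb of exon in cKO MED1, whose promoter stretch above holds GC boxes and ETS motifs, was not among the genes that fell. Its normalised reads were 12004, 10344, 9544 and 10490.3 in cKO MED1, against 9883, 9491 and 9817 in WT, so that cKO MED1 replicate 3 lay among the WT libraries and the other cKO MED1 libraries above them. The fold change was 0.12 (95% interval -0.10 to 0.33, adjusted p = 0.372 by limma). SR levels per kb of exon were 2657 in cKO MED1 and 2439.8 in WT for Srsf5 and 2191 in cKO MED1 and 3057 in WT for Srsf1, in normalised reads.

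Among the SR genes with 1 RRM, Srsf3, which encodes the smallest SR protein and one tied to export of spliced mRNA, had 9901, 10708.5, 11175 and 9297 normalised reads in cKO MED1, against 13866, 12784 and 12585.5 in WT. All cKO MED1 libraries were below all WT libraries. The means were 10270.4 ± 835 in cKO MED1 and 13078 ± 689 in WT, and the fold change was -0.35 with SE 0.10 (adjusted p = 0.0248 by limma). Srsf7, which carries a zinc knuckle besides its RRM, had 5423, 5559, 6119 and 5199 in cKO MED1, against 7369.7, 6765.5 and 6207 in WT. Its groups were separated by a narrow gap between cKO MED1 replicate 3 and WT replicate 3, and the fold change of -0.28 with SE 0.095 (adjusted p = 0.0459 by limma) was just inside the threshold.

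Srsf10, whose protein becomes a splicing repressor when dephosphorylated, had 5299.6, 5382.5, 5185 and 5051 in cKO MED1, against 6893, 6422 and 6260.4 in WT. The groups did not overlap, and the cKO MED1 libraries spanned less than the WT libraries. The fold change was -0.32 with SE 0.08 (adjusted p = 0.0182 by limma). For Srsf11, whose protein is known to bind the U2 auxiliary factor, values of 6362, 5967, 5967 and 5750.2 normalised reads in cKO MED1, against 6501.5, 5997 and 5694 in WT overlapped and the fold change was -0.01 (95% interval -0.20 to 0.18, adjusted p = 0.929 by limma). Srsf12, a relative of Srsf10, was hardly expressed, with 10.8, 1.95, 17.1 and 10.98 normalised reads in cKO MED1, against 16.5, 8.16 and 7.98 in WT; the interval of its fold change, -0.28 (95% interval -1.73 to 1.17, adjusted p = 0.771 by limma), covers change in either direction.

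The hnRNP A/B genes encode the best-studied splicing repressors. Hnrnpa1 was the most abundant hnRNP gene per kb of exon, at 6500.4 in cKO MED1 and 7326 in WT. Its normalised reads were 23144, 22091.5, 18472 and 18276 in cKO MED1, against 23174, 23055 and 23065.5 in WT. The WT libraries lay within a narrow range, cKO MED1 replicate 1 lay among them, and replicates 3 and 4 were lowest. The fold change was not called, at -0.18 (95% interval -0.43 to 0.07, adjusted p = 0.247 by limma). Hnrnpa1 has many processed pseudogenes, and the sources used here do not say how reads that map to several places were counted.

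Hnrnpa0, a gene with no intron whose protein binds AU-rich mRNAs, was the only called member of the A/B genes. It had 3592, 3589, 3457 and 2588 in cKO MED1, against 5332, 4641 and 4317 in WT. All cKO MED1 libraries were lower than WT, and replicate 4 was the lowest. The means were 3306.5 ± 483 in cKO MED1 and 4763 ± 519 in WT, and the fold change was -0.53 with SE 0.13 (adjusted p = 0.0136 by limma); without cKO MED1 replicate 4 it was -0.40 (adjusted p = 0.0214 by limma). Without WT replicate 1 it was -0.50 and no longer passed (adjusted p = 0.0546 by limma). The fold changes of Hnrnpa2b1 and Hnrnpa3, which encode the other core A/B proteins, were -0.17 (95% interval -0.40 to 0.06, adjusted p = 0.234 by limma) and -0.13 (95% interval -0.34 to 0.08, adjusted p = 0.318 by limma).

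All 3 genes of the D group fell. Hnrnpab (ENSMUSG00000020358.17, chromosome 11 from 51600100 to 51606847, minus strand), which encodes a protein related to AUF1 and known as CBF-A, had the largest fall of the 30. Its normalised reads were 9123.5, 8896, 8638 and 6323 in cKO MED1, against 14673, 11808 and 11974 in WT. The promoter stretch printed above holds CCAAT, GC and TATA boxes. All cKO MED1 libraries were lower than all WT libraries, cKO MED1 replicate 4 by the widest margin. The means were 8245 ± 1297 in cKO MED1 and 12818 ± 1608 in WT (SD, n = 4 and 3), 64.3% of the WT mean. On the log2 scale it changed by -0.64 with SE 0.14 (adjusted p = 0.0091 by limma), and 4.3% of tested genes had a lower fold change. Hnrnpab overlaps Phykpl on the opposite strand; the sources used here do not say whether counting used strand, and 11 of the 30 genes overlap a gene on the other strand.

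Hnrnpd, which encodes AUF1, a protein that speeds decay of AU-rich cytokine and cell cycle mRNAs, had 1667, 1489, 1479 and 1268 normalised reads in cKO MED1, against 2131, 1732 and 1796 in WT. The groups were separated by a small gap between cKO MED1 replicate 1 and WT replicate 2. Its fold change was -0.35 with SE 0.11 (adjusted p = 0.0355 by limma). Hnrnpdl, the third gene of the group, had 5695, 4914, 5157 and 4976 in cKO MED1, against 6675, 6352 and 5881 in WT, also without overlap, and a fold change of -0.28 with SE 0.09 (adjusted p = 0.0387 by limma).

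The F/H proteins bind runs of G and can enhance or silence exons. Hnrnpf (ENSMUSG00000042079.13, chromosome 6 from 117900324 to 117925622, plus strand), whose protein is known in B lineage cells for its part in the choice between membrane and secreted heavy chain poly(A) sites, had 9427, 10151, 10018.5 and 8243 normalised reads in cKO MED1, against 15149.7, 13503 and 13034 in WT. Its groups were far apart relative to the spread within them. Means of 9459.8 ± 870.2 in cKO MED1 and 13896 ± 1111 in WT gave 68.1% of the WT level, and the fold change of -0.56 with SE 0.105 (adjusted p = 0.00514 by limma) had the smallest p of the 30.

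Hnrnph2, on chromosome X, had 2753, 2583, 2413 and 2449 in cKO MED1, against 3297, 2959 and 3179 in WT. No cKO MED1 library reached the WT range, and the fold change was -0.30 with SE 0.085 (adjusted p = 0.0253 by limma). Of the cKO MED1 libraries 3 are female and all WT libraries are male, so that genotype and sex are largely confounded here. With sex as a covariate its fold change was -0.38 (limma adjusted p = 0.171), an estimate that rests on the 1 male cKO MED1 library.

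Its autosomal paralog Hnrnph1 had 14424, 12438, 12049 and 12628 in cKO MED1, against 14649.9, 13526 and 13521 in WT, with cKO MED1 replicate 1 inside the WT range, and a fold change of -0.11 (95% interval -0.33 to 0.10, adjusted p = 0.402 by limma). Hnrnph3, whose promoter stretch above holds none of the motifs searched, was one of the 3 genes above 0. It had 1018, 901, 769 and 942.5 in cKO MED1, against 825.5, 765 and 782.5 in WT, so that 3 of the 4 cKO MED1 libraries were above WT and replicate 3 among them. The fold change was 0.19 (95% interval -0.04 to 0.42, adjusted p = 0.18 by limma), and without cKO MED1 replicate 3 it was 0.29 and passed (limma adjusted p = 0.0448). Replicate 3 is the only male cKO MED1 library, so without it genotype and sex cannot be told apart. With sex as a covariate, a fit that rests on that library, the fold change of Hnrnph3 was -0.039.

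The L proteins bind CA repeats and repress the variable exons of CD45. Hnrnpl, expressed widely, had 8249.5, 8058, 7739 and 6839 normalised reads in cKO MED1, against 11001.5, 9705 and 9805 in WT. The groups did not overlap, and its fold change was -0.40 with SE 0.10 (adjusted p = 0.0157 by limma). Hnrnpll, whose product rises in plasma cells and activated T cells, was the rarest hnRNP gene per kb of exon, at 23.6 in cKO MED1 and 21.8 in WT. It had 195, 265, 370.1 and 271 in cKO MED1, against 279.5, 230.1 and 255 in WT. The WT libraries lay within the cKO MED1 range, whose ends were replicates 1 and 3, and the fold change was 0.08 (95% interval -0.32 to 0.48, adjusted p = 0.763 by limma).

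None of the 3 genes of the U group was called. Hnrnpu encodes a scaffold protein that also ties RNA to chromatin, and its fold change was -0.21 (95% interval -0.42 to 0.01, adjusted p = 0.13 by limma). Hnrnpul1, which has a known part in the response to DNA breaks, was the most abundant of the group per kb of exon, and had 12755, 11633.5, 10469 and 10225 in cKO MED1, against 12996, 11424 and 12755 in WT. Hnrnpul2 had 2789, 2559.7, 2377 and 2094 in cKO MED1, against 3085, 2681 and 2905 in WT. In cKO MED1, replicates 1 and 2 lay within the WT range of Hnrnpul1 and replicate 1 within that of Hnrnpul2. The fold changes were -0.14 (95% interval -0.37 to 0.09, adjusted p = 0.327 by limma) and -0.24 (95% interval -0.47 to -0.01, adjusted p = 0.102 by limma).

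The 4 remaining hnRNP genes encode proteins of distinct structure, and all cKO MED1 libraries were below all WT libraries in each of them. The same held for 36.4% of all high-expression genes, which include these 4. Hnrnpk, a KH-domain protein that binds C-rich RNA and DNA, had 21393, 22119, 21134 and 19108 in cKO MED1, against 26988, 25558 and 25307.5 in WT. The fold change was -0.31 with SE 0.10 (adjusted p = 0.0425 by limma). Hnrnpm, which binds GU-rich sites, had 5370.0, 4686, 4732 and 4076 in cKO MED1, against 7642, 6516 and 6072 in WT and the larger fall, -0.52 with SE 0.11 (adjusted p = 0.00994 by limma). Both called genes of this group were highest in WT replicate 1.

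Hnrnpc, whose protein measures transcript length and blocks splicing of Alu-like exons in human cells, had a fold change of -0.18 (95% interval -0.39 to 0.035, adjusted p = 0.178 by limma). For Hnrnpr, a relative of Syncrip, it was -0.22 (95% interval -0.41 to -0.04, adjusted p = 0.0629 by limma). Neither passed.

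**Figure D2:**
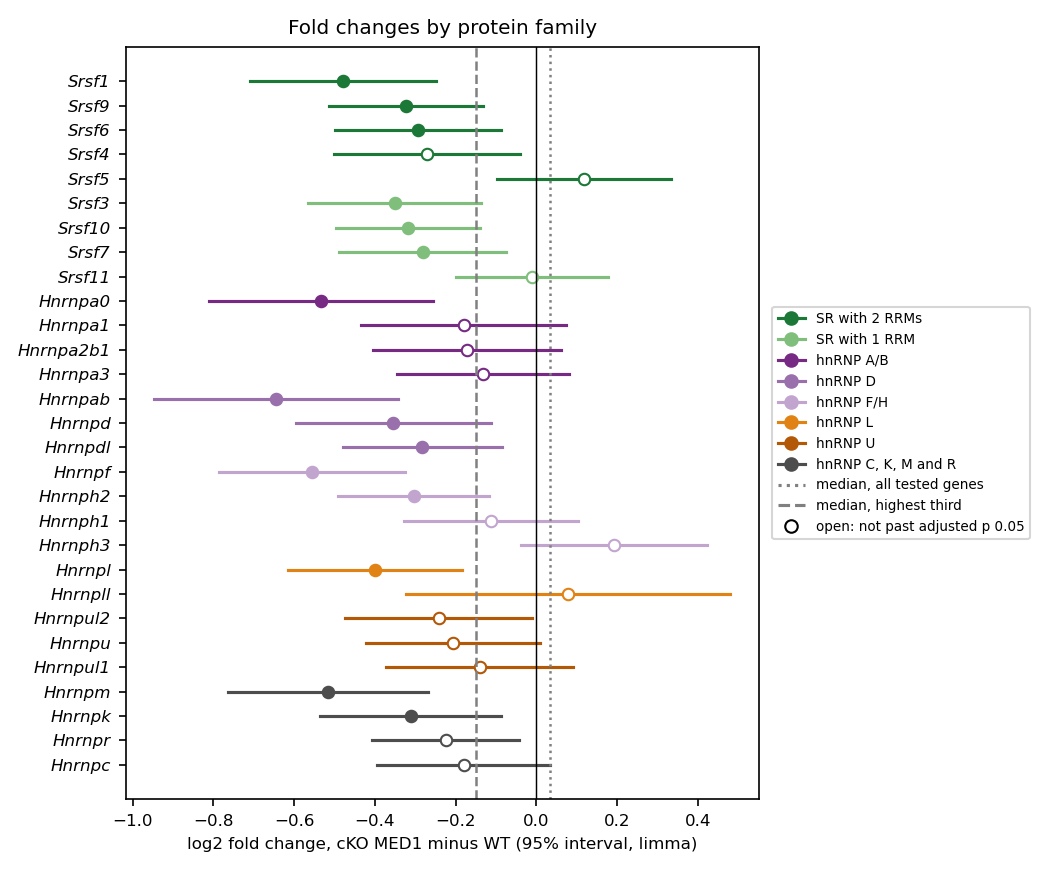
Log2 fold change, cKO MED1 minus WT, with its 95% limma interval for 29 of the 30 genes (Srsf12 is left out for its wide interval), coloured by family. Filled points passed an adjusted p of 0.05 and open points did not; the dashed line is the median of the high-expression genes (-0.15) and the dotted line that of all tested genes (0.04). All 15 filled points lie left of the dashed line.

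By family, calls lower numbered 3 of 5 among SR genes with 2 RRMs and 3 of 5 among those with 1, 1 of 4 in A/B, 3 of 3 in D, 2 of 4 in F/H, 1 of 2 in L, 0 of 3 in U and 2 of 4 among C, K, M and R. The family medians ran from -0.35 in D to -0.16 in L, with -0.29 and -0.28 in the SR groups, -0.18 in A/B, -0.21 in F/H, -0.21 in U and -0.27 in the last. Of all high-expression genes, which hold 27 of the 30, 27.6% were lower. No difference between families, or between a family and that share, was tested. The median of the 10 SR genes was -0.29 and that of the 20 hnRNP genes -0.23.

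**Figure D3:**
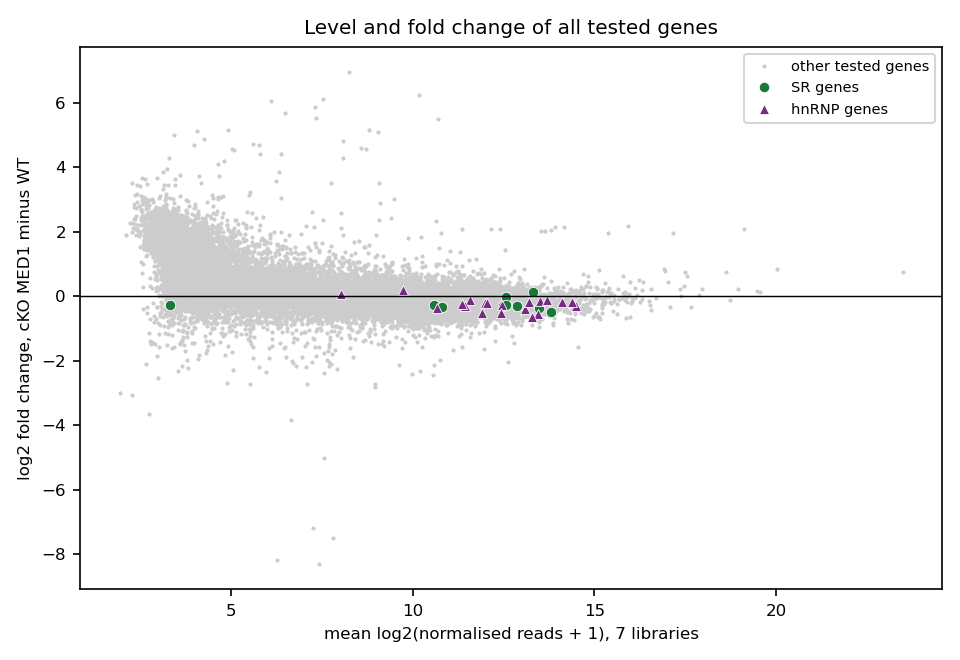
Log2 fold change, cKO MED1 minus WT, against the mean of log2(normalised reads + 1) over the 7 libraries for all 18062 tested genes (grey), with the 10 SR genes (circles) and 20 hnRNP genes (triangles) on top. 27 of the 30 are high-expression genes, where the grey points centre slightly below 0 (median -0.15), and the 30 have a median of -0.28.

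Which library was extreme was shared widely. WT replicate 1 was the highest WT library in 29 of the 30 genes, Srsf9 excepted, against 55.5% of the high-expression genes. Among the cKO MED1 libraries, replicate 1 was highest in 22 and replicate 4 lowest in 21 of the 30, against 47.4% and 46.9% of the high-expression genes. The median difference of the SR genes from their WT means was -0.23, -0.285, -0.23 and -0.395 in cKO MED1 replicates 1 to 4, against 0.11, -0.03 and -0.08 in WT replicates 1 to 3. For the hnRNP genes it was -0.18, -0.215, -0.28 and -0.35 in cKO MED1 and 0.11, -0.06 and -0.03 in WT. In the high-expression genes it was -0.10, -0.10, -0.17 and -0.23 in cKO MED1, against 0.05, -0.035 and -0.02 in WT. In every cKO MED1 library both families lay below the high-expression genes.

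The reads of silent genes differed between the same libraries: cKO MED1 replicate 4 had the most of them and the lowest medians, and WT replicate 1 the fewest and the highest medians. As shares of all reads, the SR genes held 0.137%, 0.125%, 0.112% and 0.0962% in cKO MED1 replicates 1 to 4, against 0.184%, 0.154% and 0.157% in WT. The hnRNP genes held 0.350%, 0.317%, 0.265% and 0.231% in cKO MED1, against 0.459%, 0.385% and 0.400% in WT. The mt-Rnr2 shares given above ran the other way, and their part in these values was not tested. The libraries nearest to each other in silent-gene reads were cKO MED1 replicates 1 and 2 (22.9 and 30.6 RPM) and WT replicates 2 and 3 (24.3 and 20.4). Between them the median was -0.25 for SR and -0.12 for hnRNP genes, with 0 of 29 tested genes called by limma. Over all tested genes 1.70% were called lower in this comparison, so 0 calls among 29 genes is near that share. This comparison was chosen after seeing the data. Its cKO MED1 libraries are female and its WT libraries male, so genotype and sex cannot be told apart in it.

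**Figure D4:**
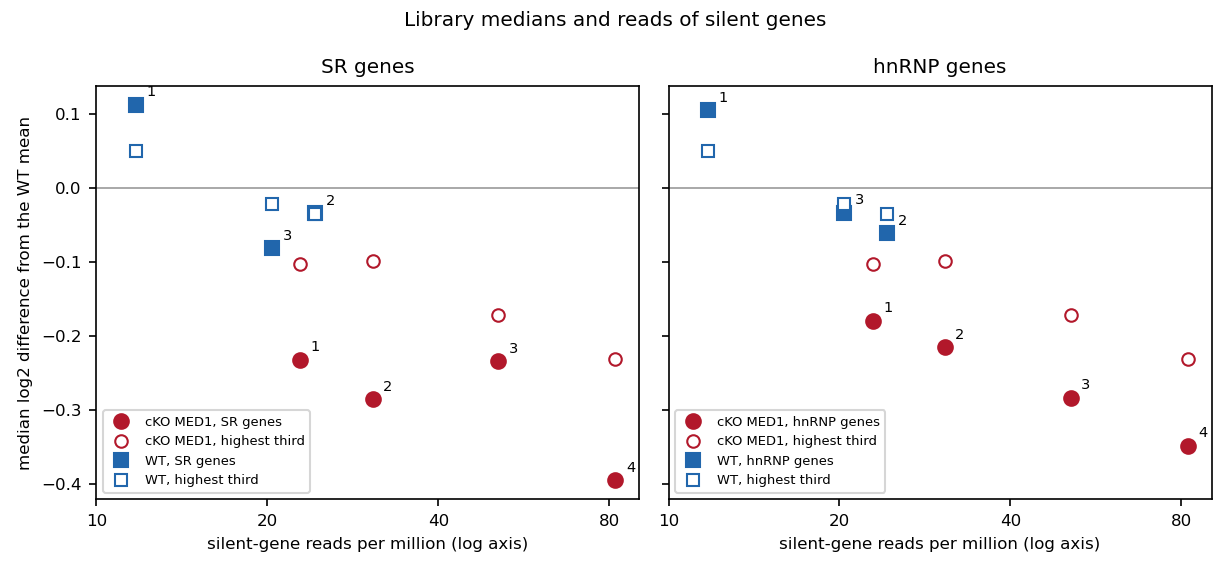
Median log2 difference from the WT mean over the SR genes (left) and hnRNP genes (right) in each library, against silent-gene reads in RPM on a log axis. Filled symbols are the families, open symbols the high-expression genes, circles cKO MED1 and squares WT, numbered by replicate. Filled circles lie lower than open circles in each cKO MED1 library, and cKO MED1 replicate 4, with 82.0 RPM, has the lowest medians.

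Ratios of paralogs within a library do not move with its scaling, and 7 pairs were tested by exact permutation, two-sided, over the 35 ways to assign the 7 libraries, which allow no p below 0.0286. 0 of the 7 passed after Benjamini-Hochberg adjustment over the pairs, and 1, that of Hnrnph2 to Hnrnph1, reached an unadjusted p under 0.05. A single pair at the smallest p adjusts to 0.2, so that no pair could have passed on its own, and the count of 0 says nothing on whether the ratios differed. The log2 ratio of Hnrnph2 to Hnrnph1 was -2.39, -2.27, -2.32 and -2.37 in cKO MED1, against -2.15, -2.19 and -2.09 in WT, a difference of -0.19 without overlap (exact permutation p = 0.0286, adjusted p = 0.2). It is the pair with the X-linked gene, and the part of sex in this ratio was not tested.

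The ratio of Hnrnpul2 to Hnrnpul1 was -2.19, -2.18, -2.14 and -2.29 in cKO MED1, against -2.07, -2.09 and -2.13 in WT (difference -0.10, exact permutation p = 0.0571, adjusted p = 0.2). These groups did not overlap, but cKO MED1 replicate 3 (-2.138) and WT replicate 3 (-2.134) were almost level. The largest difference was that of Hnrnpll to Hnrnpl, 0.48, whose values were -5.395, -4.92, -4.38 and -4.65 in cKO MED1, against -5.29, -5.39 and -5.26 in WT. There cKO MED1 replicate 1 was level with the lowest WT library and the other cKO MED1 libraries were above all WT libraries (exact permutation p = 0.171, adjusted p = 0.24).

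For Srsf1 to Srsf9 the difference was -0.16 and for Srsf3 to Srsf7 -0.07, with adjusted exact permutation p = 0.2 for both. Srsf4 to Srsf6 differed by 0.02 and Hnrnpdl to Hnrnpd by 0.07 (adjusted exact permutation p = 0.743 and 0.533). The groups overlapped in all 4 pairs.

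**Figure D5:**
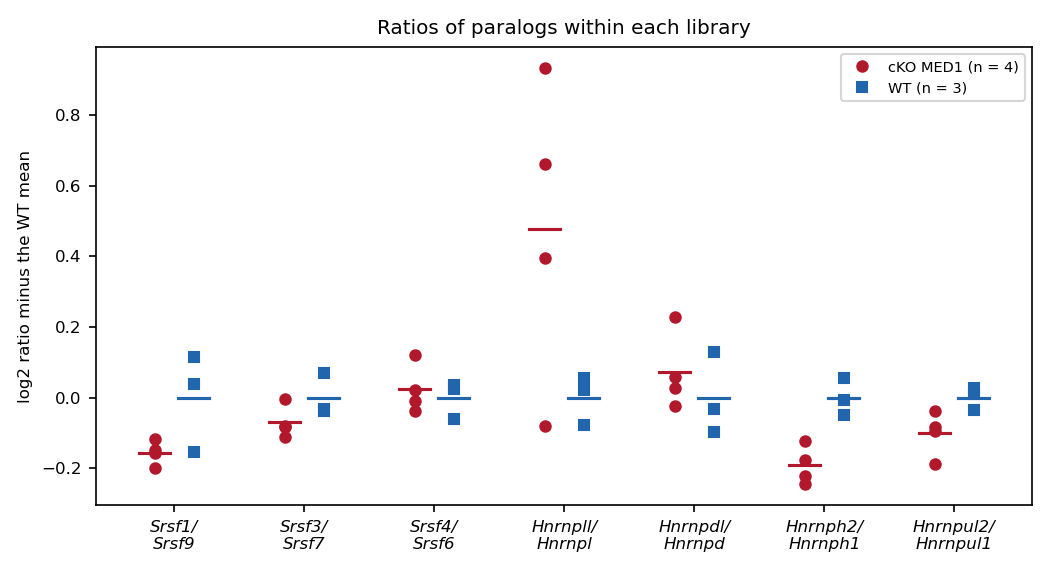
Log2 ratio of 7 paralog pairs in each library, minus the WT mean of the pair; circles are cKO MED1, squares WT, and bars the group means. Circles and squares do not overlap in Hnrnph2/Hnrnph1 and, by a very narrow gap, in Hnrnpul2/Hnrnpul1. Hnrnpll/Hnrnpl has the widest spread among cKO MED1 libraries.

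Annotated transcripts that are nonsense-mediated decay targets were frequent in the families. In the GENCODE annotation, 8 of 10 SR genes and 10 of 20 hnRNP genes have one, against 20.8% of 21068 protein-coding genes, and 7 of 10 SR and 14 of 20 hnRNP genes have a retained intron transcript, against 42.0%. The 21068 genes were not matched for expression level. The deposited values sum all transcripts of a gene, so the share of decay targets was not measured.

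Among 7 kinases that phosphorylate SR proteins, 0 fell and 2 rose, with a median of 0.12. All 7 are high-expression genes, of which 27.6% were lower and 5.40% higher. Srpk3 rose by 0.47 with SE 0.09 (adjusted p = 0.00545 by limma) and Srpk2 by 0.35 with SE 0.095 (adjusted p = 0.0223 by limma) on the log2 scale, while Srpk1, at -0.27 with SE 0.09 (adjusted p = 0.0525 by limma), and the nuclear kinase Clk1, at 0.205 with SE 0.09 (adjusted p = 0.103 by limma), did not pass. Among 22 SR-related proteins 2 fell and 2 rose (median -0.04). Those that fell were Rnps1, an exon junction complex protein, by 0.45 with SE 0.10 (adjusted p = 0.0106 by limma) and the splicing activator Tra2b by 0.36 with SE 0.095 (adjusted p = 0.0197 by limma). Luc7l2, a U1-associated protein, rose by 0.54 with SE 0.115 (adjusted p = 0.0093 by limma) and Rsrp1 by 0.30 with SE 0.09 (adjusted p = 0.0274 by limma).

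Among all high-expression genes 27.6% were lower and 5.40% higher, and 12 of 13 hnRNP-class genes with other symbols are among them. Of these 13, 6 fell and 0 rose (median -0.31). They included Ptbp1, the polypyrimidine tract repressor, with normalised reads of 8724 ± 1186 in cKO MED1 and 12606 ± 1469.5 in WT and a fold change of -0.535 with SE 0.125 (adjusted p = 0.013 by limma). Syncrip (-0.49, SE 0.10, adjusted p = 0.0076 by limma), the poly(C)-binding gene Pcbp1 (-0.67, SE 0.16, adjusted p = 0.014 by limma) and the AU-rich element binder Elavl1 (-0.44, SE 0.12, adjusted p = 0.0232 by limma) fell as well.

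In the U1 and U2 snRNP list 13 of 22 fell and 0 rose (median -0.365), led by the Sm protein gene Snrpf (-0.84, SE 0.12, adjusted p = 0.00155 by limma), Sf3a3 (-0.67, SE 0.12, adjusted p = 0.00404 by limma), Sf3b4 (-0.64, SE 0.11, adjusted p = 0.00406 by limma) and U2af2 (-0.46, SE 0.10, adjusted p = 0.00935 by limma), which recognises the polypyrimidine tract. In the tri-snRNP and Prp19 list 11 of 16 fell and 0 rose (median -0.35). Prpf19, the ubiquitin ligase of its complex, fell by 0.73 with SE 0.12 (adjusted p = 0.00261 by limma), and Eftud2 (-0.59), Prpf4 (-0.515) and Prpf31 (-0.52) fell at limma adjusted p = 0.0047, 0.00571 and 0.00608. Of 10 nonsense-mediated decay genes 4 fell and 0 rose (median -0.25): the helicase gene Upf1 by 0.52 with SE 0.10 (adjusted p = 0.00675 by limma), and Smg8 (-0.41), Smg9 (-0.37) and Smg5 (-0.30) at limma adjusted p = 0.0139, 0.0322 and 0.0345. Over these 90 genes of 6 lists, 36 fell and 4 rose, and 81 of the 90 are high-expression genes, with 32 of the falls. Of all high-expression genes 27.6% were lower and 5.40% higher, and of all tested genes 14.6% and 13.4%. No list was tested against these shares. Scaled by library totals 0 of the 90 were called higher, and by the authors' size factors 2 were.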

How the data were processed

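The authors deposited 1 table of a signal per gene, made of read counts divided by 1 size factor per library: 100% of the deposited values were whole multiples of their library's step within 1e-06, so whole reads were recovered. The submitters' processing notes name featureCounts, DESeq2, STAR 2.4.0a, R 3.4 and Subread 1.5.0-p3, with mm10 (GRCm38) as the build; the annotation and strand setting used in counting are not given in the sources used here. Scaling used edgeR 4.0.16 TMM factors computed on genes kept by filterByExpr, and limma 3.58.1, run in R 4.3.3, was fitted, with a trend of variance on level, to log2(normalised reads + 1), which understates changes of low genes. Benjamini-Hochberg adjustment ran over all 18062 genes kept. Alternatives were edgeR, DESeq2 1.42.0 and others given in the closing section. The scripts were tested on simulated data. GENCODE M21 gave positions and exonic lengths by symbol; levels per kb divide by all exonic bases. Intervals are those of limma and no counting intervals are given.

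The members, gene lists and tests were chosen with earlier results of these data known. TMM factors over all features were tried first and called 19 of the 30 genes lower, with 24.2% of all tested genes lower. The scaling on kept genes, which calls 15 with 14.6% of all tested genes lower, was settled after both had been seen. Values per library are given for called genes, for the most abundant gene per kb of each family and for the paralog pairs, and from other lists up to 4 genes with the smallest adjusted p are named. The phiX174 spike-in (at most 0.000383% of reads) was left out. Some genes are not reported here.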

Additional observations from a re-analysis of the deposited data

Results flagged for a closer look

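Among the 30 genes and 7 ratios examined in the 4 cKO MED1 libraries, Hnrnpa0 had 1 library far from the others: 2588 normalised reads in cKO MED1 replicate 4, against 3457 to 3592 in cKO MED1 replicates 1 to 3 and 4317 to 5332 in WT. The gap to the nearest library, as a share of the group's range, was above Dixon's 95% critical value, which chance exceeds in about 1 of 20 groups. Replicate 4 also had the most silent-gene reads, and the part of these reads in the value was not tested.

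The pseudogene Hnrnpa1l2-ps, left out of the 30 genes, was listed with 10.8, 7.80, 11.9 and 20.1 normalised reads in cKO MED1, against 4.13, 4.08 and 3.19 in WT, means of 12.7 ± 5.27 (SD, n = 4) and 3.802 ± 0.527 (SD, n = 3). Its log2 fold change of 1.44 did not pass (limma adjusted p = 0.0692), although the groups did not overlap. It resembles its parent gene in sequence, and shared reads cannot be told apart here.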

How the results depend on the processing

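In all 23 alternative settings each of the 15 called genes kept a negative fold change, and the number of the 30 with a negative fold change was 23 to 30. The median was -0.53 to -0.22 for SR and -0.48 to -0.11 for hnRNP genes. The calls (6 SR and 9 hnRNP lower as reported, with 14.6% of all tested genes lower) were fewer in several settings, in which fewer of all genes were called too. A threshold of 0.01 left 0 SR and 3 hnRNP (4.4% of all genes lower), sex as a covariate 0 and 0 (0.659%), silent-gene reads as a covariate 0 and 0 (0.659%), leaving out cKO MED1 replicates 3 and 4 together 1 and 3 (7.34%), and WT replicates 2 and 3 against cKO MED1 replicates 1 and 2, added after seeing the data, 0 and 0 (1.70%). With the replicate number as a block, 3 SR and 5 hnRNP genes were called (10.1%); the block leaves cKO MED1 replicate 4, whose number no WT library shares, without weight. Deviations from the group means of libraries with the same number correlated at 0.515, -0.235 and 0.163 across genes for numbers 1 to 3, so the numbers were not taken as pairs. Leaving out 1 library at a time gave 0 to 7 SR and 3 to 12 hnRNP genes lower, with 5.25% to 17.5% of all tested genes lower. It gave 0 to 1 hnRNP gene higher, which was Hnrnph3 without cKO MED1 replicate 3. That omission also left 5 hnRNP genes lower, and it leaves only female cKO MED1 libraries against male WT libraries. Hnrnpab and Hnrnpf were called in 20 settings, Hnrnpm in 19, Srsf1 and Hnrnpa0 in 18, but Hnrnpk in 10 and Srsf6 and Hnrnpdl in 11; the cause was not tested. Scaling moved the median of all genes from 0.04 to -0.10 (the authors' size factors), -0.12 (TMM over all features, added after seeing the data) and -0.21 (total reads), and the share of calls that were higher from 47.8% to 37.3%, 31.9% and 31.8%. Of the other lists (36 lower, 4 higher), calls higher were then 2, 2 and 0, and with sex as a covariate 1 was lower and 0 higher. Signs turned only in uncalled genes. With total reads the fold changes were -0.125 (Srsf5), -0.051 (Hnrnph3) and -0.16 (Hnrnpll), with the authors' factors -0.014 (Srsf5) and -0.053 (Hnrnpll), and with TMM over all features -0.038 (Srsf5) and -0.077 (Hnrnpll). With the block Srsf11 was at 0.01. With sex they were -0.028 (Srsf5), 0.68 (Srsf12) and -0.039 (Hnrnph3), and with silent-gene reads 0.09 (Srsf11), 0.02 (Hnrnpa1), 0.006 (Hnrnph1), -0.13 (Hnrnpll), 0.066 (Hnrnpul1) and 0.011 (Hnrnpul2). Hnrnpll ranged up to 0.218 with 1 library left out, and was -0.048 without WT replicate 2, -0.052 without cKO MED1 replicate 3 and -0.15 without replicates 3 and 4. Srsf11 was 0.019, 0.014 and 0.032 without cKO MED1 replicates 2, 3 and 4, each alone, and 0.03 without 3 and 4, and Srsf12 was 0.30 without cKO MED1 replicate 2. Between the 4 libraries nearest in silent-gene reads they were 0.07 (Srsf11), -0.10 (Hnrnpll) and 0.007 (Hnrnpul1). The ratio of Hnrnph2 to Hnrnph1 ranged from -0.22 to -0.16 and that of Hnrnpll to Hnrnpl from 0.16 to 0.66; with a library left out the permutations cannot reach 0.05, so these are values without a test. Srsf12, at 1.95 to 17.1 normalised reads, is limited by depth.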
